A study of Mus musculus with 2 samples.

Results

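A set of 8 genes for transcription factors of the hepatocyte lineage was followed in mouse liver RNA: Foxa1, Foxa2, Foxa3, Cebpa, Cebpb, Hhex, Onecut1 and Prox1. They were taken by symbol, with nuclear receptors left out, and 8 of 8 were found among the 22609 gene symbols of the count tables. The study compared liver RNA with and without Lrg1, the gene of a glycoprotein that liver and fat release into blood, in diet-induced obesity. It holds 2 libraries of liver RNA from male C57BL/6 mice, 1 from wild type (C57BL/6J) and 1 from whole-body Lrg1 knockout. Both genotypes ate chow with 45% of its calories as fat for 16 weeks, starting at the age of 8 weeks. The sources used here do not say how the Lrg1 allele was made, how many mice went into a library or at what hour tissue was collected.

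These factors switch on and maintain the liver gene program. Foxa proteins are pioneer factors: they bind their sites in closed chromatin and open it for others. C/EBP alpha and beta are leucine-zipper proteins, the former tied to metabolic genes of the resting hepatocyte and the latter to acute phase responses and regeneration. Hhex, Onecut1 (also called HNF6) and Prox1 are homeodomain proteins needed as the liver bud forms and grows, and all 3 continue to be expressed in the adult organ.

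Reads counted in genes came to 23311906 for wild type and 18738397 for the library labelled Lrg1 knockout. Levels are given in CPM, reads scaled to 1e+06 of library size after adjustment by the trimmed mean of M-values (TMM), and 1 read was worth 0.0441 CPM in the former and 0.0519 CPM in the latter. All intervals are exact 95% intervals for counting error only, and PCR copies of a molecule are not told apart. With 1 library in each group there is no replicate check, no test and no p-value, so each difference is one between these libraries and not between genotypes. Lrg1 itself had 26958 wild-type reads and 17572 in the other library, a ratio of 0.766 (0.751 to 0.780), so the label was not borne out by the level of the targeted gene. Which part of Lrg1 was deleted is not stated in the labels, and reads outside it would still be counted. The second library is therefore called the library labelled Lrg1 knockout throughout, and every direction rests on that label.

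Hhex was 6.81-fold higher in the library labelled Lrg1 knockout, by far the widest difference of the 8 factors. Onecut1 (1.98-fold) and Foxa1 (1.68-fold) were also higher, Cebpb was 1.78-fold higher in the wild-type library, and Foxa2, Foxa3, Cebpa and Prox1 lay closer to equal levels. The promoter stretches of the 4 factors that were at least 1.5-fold apart are shown first, so that the starts of the genes that differed most can be read beside their values. Each is the 250 bases before the annotated start, 5′ to 3′ on the strand of the gene, from RefSeq on build GRCm38.p6; the counts were made on mm9, so these positions apply to the sequences only. Capitals mark matches to the motifs searched.
Hhex, chr19:37434591-37434840, plus strand: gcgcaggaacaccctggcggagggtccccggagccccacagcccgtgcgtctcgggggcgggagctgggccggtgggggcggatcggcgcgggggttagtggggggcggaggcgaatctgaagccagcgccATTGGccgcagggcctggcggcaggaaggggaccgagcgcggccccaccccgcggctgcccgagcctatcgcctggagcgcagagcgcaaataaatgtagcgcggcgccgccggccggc
Foxa1, chr12:57546112-57546361, minus strand: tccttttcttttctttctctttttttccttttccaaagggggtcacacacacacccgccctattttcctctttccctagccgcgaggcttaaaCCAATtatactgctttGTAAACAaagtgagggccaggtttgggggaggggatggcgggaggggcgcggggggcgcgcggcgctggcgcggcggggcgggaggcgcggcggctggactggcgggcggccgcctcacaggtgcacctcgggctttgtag
Onecut1, chr9:74861671-74861920, plus strand: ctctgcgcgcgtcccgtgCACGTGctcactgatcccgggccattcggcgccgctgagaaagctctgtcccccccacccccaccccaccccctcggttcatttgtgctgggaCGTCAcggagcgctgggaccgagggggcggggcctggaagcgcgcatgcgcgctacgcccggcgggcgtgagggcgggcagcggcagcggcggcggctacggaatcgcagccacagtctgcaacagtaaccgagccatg
Cebpb, chr2:167688665-167688914, plus strand: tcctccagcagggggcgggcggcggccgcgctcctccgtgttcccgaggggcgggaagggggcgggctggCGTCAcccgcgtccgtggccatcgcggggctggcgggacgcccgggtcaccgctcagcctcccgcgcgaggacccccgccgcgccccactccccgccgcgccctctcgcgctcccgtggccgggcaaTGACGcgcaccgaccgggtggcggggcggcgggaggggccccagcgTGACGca

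In all, 9 motifs were searched on both strands, and their share is given over the 32851 RefSeq stretches of the same length. The Foxa core, TGTTTAC, was found in 3.17% of stretches and lay on the opposite strand of the Foxa1 stretch, 141 bases before the annotated start. The E-box, CACGTG, was found in 6.02% and lay in the Onecut1 stretch, 232 bases before its start. The core of the cyclic AMP response element, TGACG, was found in 17.8%. The Onecut1 stretch held it once, 139 bases before the start, and the Cebpb stretch held it at 180, 53 and 7 bases before the start. In the Hhex stretch only CCAAT was matched, which 33.8% of all stretches hold and which the Foxa1 stretch held as well. The C/EBP motif, TTGCNNAA, was found in 9.56% of all stretches and the Onecut motif, ATCAAT, in 6.72%. The STAT motif, TTCNNNGAA, was found in 7.02% and the motif of PAR bZIP factors, TTANGTAA, in 2.06%. The TATA box, TATAAA, was found in 12.4%. None of these 5 was in the 4 printed stretches, and no match overlapped another there. The factors closer to equal levels held some of these motifs. TATAAA lay in the stretches of Cebpa and Foxa3 and in a stretch each of Prox1 and Foxa2. CCAAT lay in the Foxa3 stretch and in a stretch of Foxa2, which also held ATCAAT. By base composition the Hhex stretch was 76.0% G and C, that of Cebpb 81.6%, Onecut1 71.6% and Foxa1 62.0%. The median was 52.4% over all stretches. Among the factors closer to equal levels, Foxa3 was at 68.8% and Cebpa at 66.4%. The stretches of Prox1 were at 64.8% and 56.0%, and those of Foxa2 ran from 50.8% to 67.2%. A match is a run of letters in this window and no measure of binding.

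All 8 factors passed the minimum of 50 reads summed over both libraries, with 701 reads for Onecut1 at the low end and 19179 for Cebpa at the high end. Such genes are called measured, and 11411 were. Among the 8, 5 were higher and 3 lower in the library labelled Lrg1 knockout, with a median log2 ratio (that library over wild type) of 0.17 against -0.01 over all measured genes. Of the 8, 1 was at least 2-fold apart, Hhex, where 4.2% of all measured genes were, 1.71% higher and 2.49% lower in the library labelled Lrg1 knockout. At 1.5-fold, 4 of 8 were apart, where 12.8% of measured genes were. The 8 were chosen with earlier results of these data known, so these shares cannot show that such factors differ more often. The counting interval excluded equal levels for 8 of 8 factors and for 48.6% of measured genes, many of which have fewer reads than these factors. In sum the 8 factors made up 799 CPM in the wild-type library and 814 CPM in the other.

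**Figure D1:**
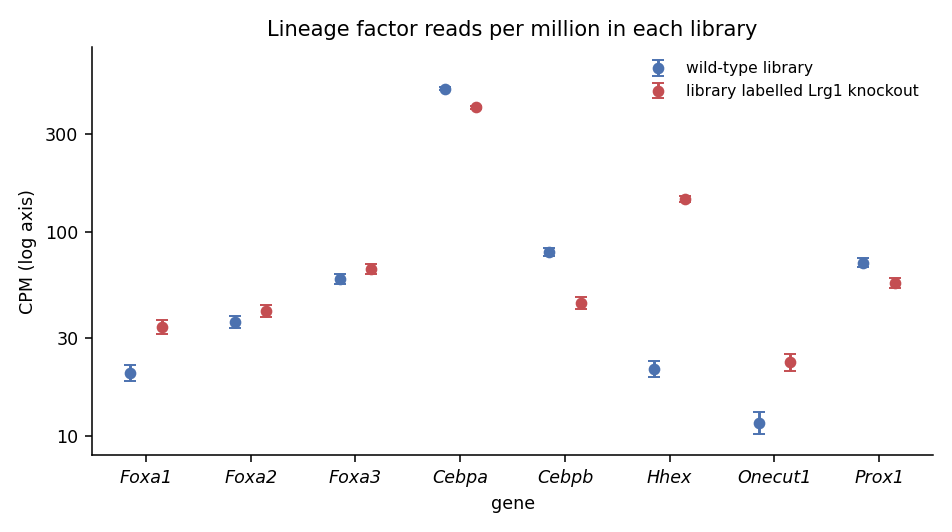
Level (CPM, log axis) of each of the 8 factors in the wild-type library (blue) and the library labelled Lrg1 knockout (red), with exact Poisson 95% intervals for counting error; there is 1 library per group. Hhex stands at 21.2 CPM in blue and 144.6 CPM in red, and Cebpa is the highest factor in both.

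Foxa1, Foxa2 and Foxa3 were each higher in the library labelled Lrg1 knockout, but by unequal amounts. Foxa1, which with Foxa2 is needed for the liver to be specified in the embryo, had 459 wild-type reads against 656 in the other library, or 20.3 CPM (18.5 to 22.2) and 34.0 CPM (31.5 to 36.7). Its ratio was 1.68 (1.49 to 1.90), a log2 ratio of 0.75. The intervals of its levels did not overlap.

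Foxa2, the forkhead factor also tied to fasting metabolism and bile acid handling, had 819 and 789 reads, or 36.2 and 40.9 CPM. With the libraries' unequal depth this gave a ratio of 1.13 (1.02 to 1.25). Foxa3, the most abundant of the 3 per kb of exons, had 1330 and 1266 reads, or 58.7 and 65.7 CPM, a ratio of 1.12 (1.03 to 1.21). Both ratios lay near 1, and 55.4% of measured genes were as far from equal levels as Foxa2 or farther.

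Because the 3 Foxa genes can be compared within a library, their make-up does not depend on how libraries are scaled. Foxa1 took 17.6% of Foxa reads in the wild-type library (16.2 to 19.1, exact binomial) and 24.2% in the library labelled Lrg1 knockout (22.6 to 25.9). Foxa3 took 51.0% (49.1 to 52.9) and 46.7% (44.8 to 48.6). The share of Foxa2, 31.4% and 29.1%, had intervals that overlapped. The ratio of the odds of a Foxa1 read was 1.49 (1.30 to 1.71). Per kb of exons the order was Foxa3, Foxa2, Foxa1 in both libraries, at 28.8, 15.3 and 6.09 CPM per kb in wild type and 32.2, 17.3 and 10.2 CPM per kb in the other.

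**Figure D2:**
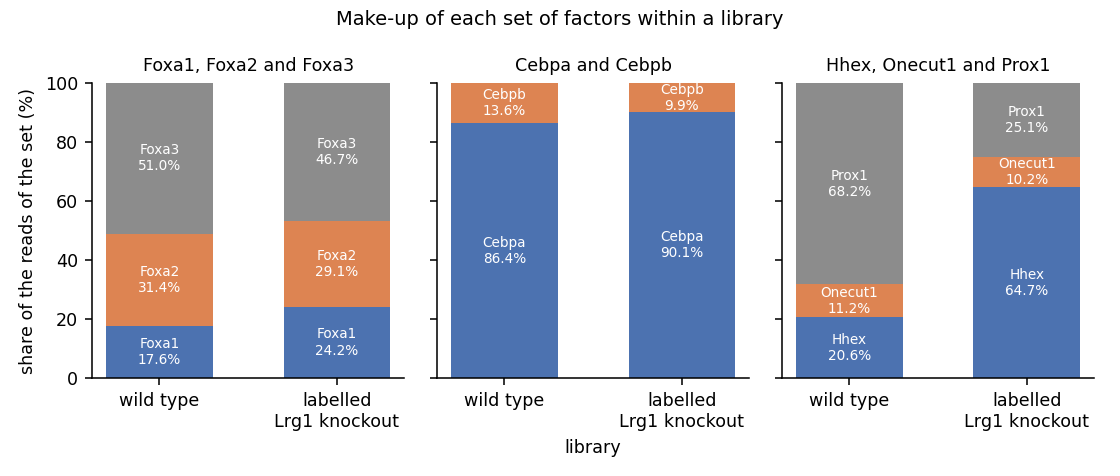
Share of reads (percent) that each gene takes of its set within each library, for the Foxa genes, the C/EBP genes and the homeodomain genes, from read counts without length correction. Hhex goes from 20.6% of the homeodomain reads in the wild-type library to 64.7% in the library labelled Lrg1 knockout, and Prox1 from 68.2% to 25.1%.

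Cebpa and Cebpb were both lower in the library labelled Lrg1 knockout, Cebpb by more. Cebpa, which drives genes of glucose, lipid and urea metabolism, had 11354 and 7825 reads, or 501.2 CPM (492.0 to 510.5) and 405.8 CPM (396.8 to 414.9). Its ratio was 0.810 (0.787 to 0.833), a log2 ratio of -0.30. It was the most abundant of the 8 factors in both libraries.

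Cebpb, the factor that follows cytokine, hormone and stress signals, had 1793 wild-type reads against 859 in the other library, or 79.2 CPM (75.5 to 82.9) and 44.5 CPM (41.6 to 47.6). The ratio of 0.563 (0.518 to 0.611) is a log2 ratio of -0.83. Cebpb made up 13.6% of the reads of the pair in wild type (13.1 to 14.2) and 9.89% in the other library (9.27 to 10.5), so the pair's balance differed as well as its level. The protein isoforms made from the single Cebpb mRNA cannot be seen in counts.

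Cebpb is also expressed in macrophages, and the list of Kupffer cell and macrophage markers was lower too. Of 10 measured markers 8 were lower, with log2 ratios from -2.04 for Marco to 0.15 for Clec4f, a median of -0.39 and 0 markers without reads. Their summed level was 560 CPM in wild type and 426 CPM in the other library, a ratio of 0.761. Their part in the value of Cebpb was not tested. In bulk tissue, fewer cells of a type and less RNA per cell cannot be told apart. Exons of Tmem189 lie opposite to Cebpb and share 18.1% of its 50-base stretches. Tmem189 had 712 and 422 reads, a log2 ratio of -0.52. The kit marks strand, but the labels do not give the strand setting of the counting, so the reads of this pair are uncertain.

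The C/EBP family as a whole leaned the same way. Of 6 measured genes 5 were lower, with a median log2 ratio of -0.60 against -0.01 over all measured genes, and 0 were 2-fold apart. Cebpd, another acute phase C/EBP, was at -0.71 on 249 and 129 reads, Ddit3 (CHOP), a stress-induced partner, at -0.67, and Cebpe, best known from granulocytes, at -0.53. Cebpg, a partner without an activation domain of its own, was the exception at 0.23. The family holds Cebpa and Cebpb, so it is not separate evidence for them.

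Hhex, a homeodomain repressor that marks the early liver bud and is also made in endothelium, bile ducts and B cells, had 481 wild-type reads against 2788 in the other library. Its level was 21.2 CPM (19.4 to 23.2) in the former and 144.6 CPM (139.3 to 150.0) in the latter. The ratio was 6.81 (6.18 to 7.52), a log2 ratio of 2.77. It ranked 8 from the highest of 11411 measured genes, and 34 genes, Hhex included, or 0.298%, were as far from equal levels or farther in either direction.

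Among the 8459 genes with at least 300 reads, Hhex ranked 5 from the highest. The 2 genes next above it in log2 ratio were Socs2 (3.23), a feedback inhibitor of growth hormone signalling, and the pseudogene Serpina4-ps1 (2.85). The 2 next below were the immediate early nuclear receptor Nr4a1 (2.42) and the kinase gene Sik1 (2.41). Likeness here means only a similar ratio between these 2 libraries.

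**Figure D3:**
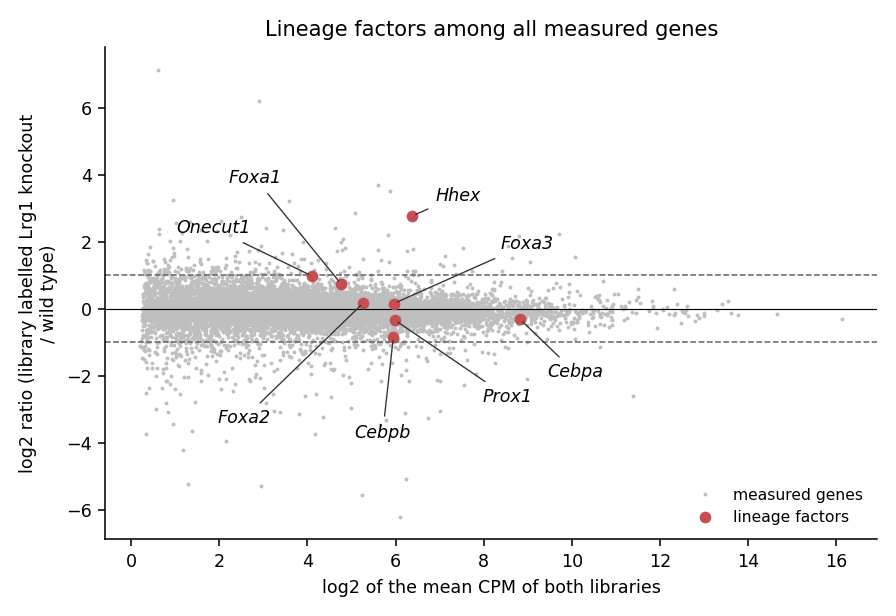
Log2 ratio of the library labelled Lrg1 knockout to wild type against the log2 of the mean CPM for 11411 measured genes (grey) and the 8 factors (red), with dashed lines at 2-fold. Hhex, at 2.77, lies above the bulk of genes of its abundance, whereas the other 7 factors lie within the dashed lines.

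Markers of other cells that make Hhex were compared by whole lists. Of 16 measured markers of sinusoidal endothelium 14 were above 0 in log2 ratio, with values from -0.47 for Lyve1 to 1.04 for Dnase1l3 and a median of 0.42. Their summed level was 399 CPM in wild type and 554 CPM in the other library, a ratio of 1.39, and 0 of them lacked reads. Among cholangiocyte markers only 3 of 10 were measured, among them Sox9 and Spp1, with log2 ratios from -0.06 to 0.18 and a summed level of the full list of 60.7 and 62.3 CPM. B cell markers summed to 3.62 and 4.51 CPM, with 2 of 6 measured. The part of these cells in the value of Hhex was not tested.

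Genes of the circadian clock also differed between the libraries, and the labels give no hour of collection. Of 19 measured clock genes 13 were lower and 6 higher, with log2 ratios from -5.28 to 2.21 and a median of -0.97. The median over all measured genes was -0.01. By 2-fold or more, 9 clock genes were lower and 2 higher, where 2.49% and 1.71% of all measured genes were. The part of the clock genes in the values of Hhex and the other factors was not tested.

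Onecut1, a CUT homeodomain factor of hepatocytes and bile ducts, was the least abundant of the 8. It had 261 and 440 reads, or 11.5 CPM (10.2 to 13.0) in wild type and 22.8 CPM (20.7 to 25.1) in the library labelled Lrg1 knockout. Its ratio of 1.98 (1.70 to 2.32), a log2 ratio of 0.98, lay just under 2-fold, and under scaling by total count it was at 1.07, past that threshold. The non-coding gene Gm20649, annotated on the same strand, shares 52.3% of the 50-base stretches of Onecut1. That symbol was not listed in the count tables, so reads of the shared stretches cannot be told from those of Onecut1.

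Other CUT genes did not go as far. Onecut2, the close relative of Onecut1, had 3602 and 3436 reads, a log2 ratio of 0.16 (0.10 to 0.23), and Cux1 was at -0.42. Onecut3 had 0 reads in both libraries, which allows up to 0.132 CPM in wild type and 0.156 CPM in the other library (3 counts).

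Prox1, a homeodomain factor of the Prospero type that holds back bile acid synthesis with HNF4 alpha, had 1593 and 1079 reads. Its level was 70.3 CPM (66.9 to 73.9) in wild type and 56.0 CPM (52.7 to 59.4) in the library labelled Lrg1 knockout, a ratio of 0.796 (0.736 to 0.860). Prox1 also marks lymphatic endothelium, and of 6 lymphatic markers 3 were measured, with Lyve1 at -0.47, Flt4 at 0.34 and Reln at 0.27, and Ccl21a without reads. Each of the 3 is on another marker list too, Lyve1 and Flt4 as sinusoidal and Reln as stellate, so no measured gene was lymphatic alone. Summed, that list was at 106.5 and 121.2 CPM, of which Reln made up 69.1 and 83.5 CPM. Its part in the value of Prox1 was not tested. The antisense gene Prox1os shares 84 of the 8389 stretches of Prox1.

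**Figure D4:**
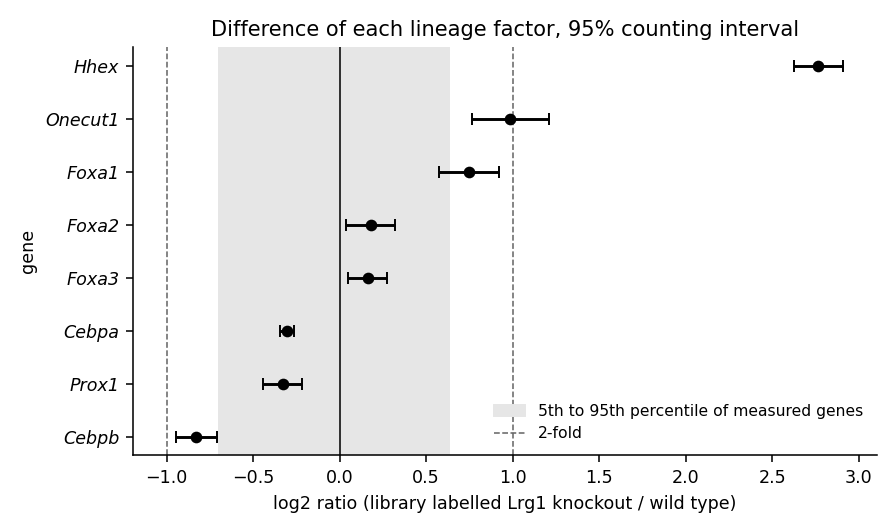
Log2 ratio of the library labelled Lrg1 knockout to wild type for each factor, with exact 95% counting intervals; the grey band spans the 5th to 95th percentile of measured genes, -0.70 to 0.63, and dashed lines mark 2-fold. Hhex, Onecut1 and Foxa1 lie to the right of the band, Cebpb to its left, and the other 4 factors inside it.

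The order of the factors by level per kb of exons differed between the libraries. In wild type it ran from Cebpa (190 CPM per kb) over Cebpb (52.6), Foxa3 (28.8), Foxa2 (15.3), Prox1 (8.38), Foxa1 (6.09) and Hhex (4.20) to Onecut1 (2.80), and the counting intervals of neighbours did not overlap. In the library labelled Lrg1 knockout Cebpa (153.9 CPM per kb) was followed by Foxa3 (32.2), Cebpb (29.6) and Hhex (28.6). The intervals of Foxa3 and Cebpb overlapped, as did those of Cebpb and Hhex, so these places are not settled. Hhex went from place 7 to place 4 by this measure. By coding length, which leaves out untranslated parts, it went from place 5 to place 2, but in wild type it stood at 26.1 CPM per kb of coding length beside Foxa2 at 25.9, so place 5 is not settled. By the longest transcript it went from place 7 to place 2.

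Ratios between factors within a library need no scaling. Of the 28 pairs, 14 had a ratio at least 2-fold apart between the libraries: 7 of the 7 pairs that hold Hhex and 7 of the 21 others. Each pair value is a quotient of the ratios of its factors given above. With Hhex at 6.81 and no other factor above 1.98, the count of pairs with Hhex was fixed by its own ratio. No share over pairs of all measured genes was computed. In 3 pairs, singled out after their values were seen, the interval held no difference. Such an interval does not show equal ratios, and 1 library per group cannot show that factors change together. Foxa1 to Onecut1 was 0.848 times its wild-type ratio (0.695 to 1.03), Foxa2 to Foxa3 1.01 times (0.892 to 1.15) and Cebpa to Prox1 1.02 times (0.936 to 1.11). The widest pair was Hhex to Cebpb, at 3.73 Cebpb reads per Hhex read in wild type against 0.308 in the library labelled Lrg1 knockout, a 12.1-fold difference (10.6 to 13.8). The 8 factors thus fell along a range of ratios, with Foxa1 beside Onecut1, Foxa2 beside Foxa3 and Cebpa beside Prox1.

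Of 25 measured genes of a list of other liver-enriched transcription factors, 16 had a log2 ratio below 0 and 9 above 0, with a median of -0.29 against -0.01 over all measured genes, of which 51.6% were lower. None of the 25 was 2-fold higher, and 3 were 2-fold lower or more: Tox (-1.95), an HMG-box factor, Hes1 (-1.75), a Notch target, and Bcl6 (-1.12), a repressor. The highest value of the list was 0.53, well under that of Hhex. Among 14 measured genes that encode partner proteins of the factors, 9 were lower, with a median of -0.10. Hnf4a, the nuclear receptor that works with most of the 8, was at -0.51, the corepressor Tle3 at -0.48 and the nuclear receptor Nr2f2 at 0.45.

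Among forkhead genes at large, 16 of 44 were measured, 8 higher and 8 lower, with 0 at least 2-fold apart. Their median of 0.03 turned negative (-0.04) at a minimum of 200 reads. Foxq1, at 0.97 on 452 and 756 reads, was higher than any Foxa gene in log2 ratio. Foxp2, at 0.75 (0.30 to 1.21) on 71 and 102 reads, stood beside Foxa1. Foxo1, the insulin-restrained activator of glucose production, was at -0.37 and Foxo3 at -0.61. Of the 44, 18 had no reads in either library.

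Genes often described as targets of the factors went both ways. These lists were written from general knowledge, and binding was not measured. Of 17 measured Foxa targets 8 were higher and 9 lower, with a median of -0.03 that turned positive under scaling by total count, and 2 were at least 2-fold higher: G6pc, the last enzyme of glucose release (2.16), and Igfbp1, a binding protein of insulin-like growth factors (1.80). Of 21 C/EBP targets 13 were lower, with a median of -0.12, and the same 2 genes were at least 2-fold higher. Apcs, which encodes serum amyloid P, was at -0.80. The Foxa and C/EBP lists share 6 genes, 35.3% of the former and 28.6% of the latter.

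Of 10 measured Onecut1 targets 6 were higher, with a median of 0.18. G6pc was the highest, and 1 target was at least 2-fold higher. At least 2-fold lower were 2 targets, the lowest at -1.55. Pfkfb1, which sets fructose 2,6-bisphosphate, was the other of these, at -1.15. Of 6 measured Prox1 targets 3 were higher and 3 lower, with a median of 0.04. They included Cyp7a1, the rate-limiting enzyme of bile acid synthesis (0.85, 0.71 to 0.99), Cyp7b1 of the alternative bile acid pathway (1.12) and Nr0b2, the repressor SHP (-1.61).

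Of 11 measured Hhex targets 9 were higher, with a median of 0.60. Kdr, a VEGF receptor, had 517 and 882 reads, Onecut1 was at 0.98 and Nrp1, a VEGF co-receptor, at 0.79. Of the 11, 4 are also endothelial markers (Kdr, Tek, Eng and Tie1) and 1 is one of the 8 factors. The 6 others had a median of 0.16, with 4 higher and 2 lower.

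**Figure D5:**
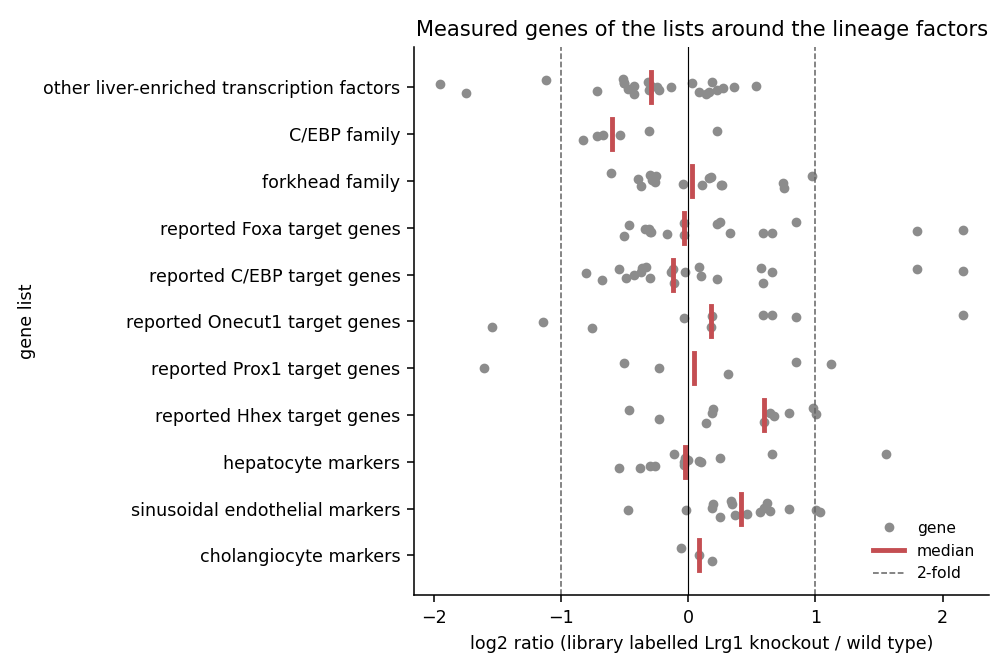
Log2 ratio of the library labelled Lrg1 knockout to wild type for each measured gene (points) of 11 lists around the factors, with the list median as a red bar and dashed lines at 2-fold. The medians of the Foxa, C/EBP, Onecut1 and Prox1 target lists lie between -0.12 and 0.18, and that of the Hhex list, which shares 4 genes with the endothelial list, at 0.60.

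Hepatocyte markers were abundant in both libraries. Of 14 measured, 5 were higher and 9 lower, with a median of -0.03 that turned positive under scaling by total count. Serpina1e, a protease inhibitor gene with near-identical copies whose reads are uncertain, was at 1.55, Tat, tyrosine aminotransferase, at 0.66 and Cps1, the first urea cycle enzyme, at -0.54. Pdx1, a pancreas factor, and Cdx2, an intestine factor, had 0 reads in both libraries.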

How the data were processed

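Liver RNA was selected for poly(A), made into stranded libraries from about 500 ng and sequenced as single reads of 50 bases, per the labels. The submitters' processing notes name bcl2fastq, TopHat2, HTSeq and build mm9; they give no version, annotation or strand setting. Whole-number raw counts per gene symbol were deposited by the authors without normalization and used as such; library sizes leave out lines that name no gene. Reads outside genes made up 14.0% and 14.4% of unique reads.

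TMM factors (0.972 and 1.03) came from edgeR 4.0.16 in R 4.3.3. Log2 ratios used a prior count of 0.5, and intervals were exact (Clopper-Pearson, Poisson or conditional odds ratio; Python 3.11.15, scipy 1.17.1). Measured meant at least 50 reads summed over both libraries. Exon lengths, overlaps and shared stretches came from GENCODE M21 (GRCm38). Of the 8 factors, 8 matched the RefSeq promoter table. Ratio, interval and threshold were tested on simulated libraries drawn with counting error only, so that check does not cover spread between mice or libraries. DESeq2 1.42.0 size factors and other settings were tried as alternatives. Named genes were the 8 factors, Lrg1, up to 3 genes farthest from 0 in each list, measured family members, the genes next to Hhex and genes overlapping a factor; Lyve1, Marco and Clec4f as ends of a range, the genes shared by lists and genes without reads were named after their values were seen. Members and lists were chosen with earlier results of these data known. Some members of the lists are not reported here by name.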

Additional observations from a re-analysis of the deposited data

Results flagged for a closer look

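Alignments to more than 1 place are tallied apart in the count tables and enter no comparison here. There were 27554856 in the wild-type library (50.3% of all counted lines) and 30368128 in the library labelled Lrg1 knockout (58.0%). These are alignments and not reads, so the percentages are not shares of reads. Which genes they came from was not analysed here. Of the 50-base stretches of Foxa1, Foxa2 and Foxa3, 0 recur in transcripts of another gene.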

How the results depend on the processing

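Every factor kept its direction under the 5 alternatives of scaling, prior count and thinning. A change of scaling moves all genes by the same amount, here less than any factor's distance from 0, so it could reverse none. Hhex ranged from 2.74 to 2.85 (log2), Onecut1 from 0.98 to 1.07, Foxa1 from 0.75 to 0.83 and Cebpb from -0.83 to -0.75. Cebpa left its counting interval under total count (-0.22) and when the 20 most abundant genes were left out of it (-0.25). Total count moved the median of all measured genes by 0.083. The number of factors at least 2-fold apart was 2 under total count, 2 without those 20 genes and 2 after thinning, since Onecut1 lies at that threshold, and 4 at 1.5-fold. By coding length 4 of 8 factors kept their place in the order of levels for wild type and 3 for the library labelled Lrg1 knockout, and by longest transcript 5 in the latter. Reads per kb gave Foxa1 12.1% and 17.1% of the Foxa set, Foxa3 57.5% and 54.0%, Cebpa 78.3% and 83.9% and Cebpb 21.7% and 16.1% of their pair, by construction. The medians of the C/EBP targets, the Foxa targets and the hepatocyte markers were negative while their means were positive (0.07, 0.26 and 0.07). Those of the Prox1 targets and stellate markers were positive while the mean was negative. No paired analysis was possible because each group holds 1 library, and no library could be left out. The count of 701 reads of Onecut1 limits its ratio to 1.70 to 2.32.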

Other observations

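Stellate cell and fibroblast markers stood close to equal levels, with 8 of 10 higher, a median log2 ratio of 0.07, a mean of -0.05 and a summed level of 545 CPM in the wild-type library and 554 CPM in the library labelled Lrg1 knockout. Their collagen genes went the other way, Col1a1 at -1.07 and Col3a1 at -0.56. Neutrophil markers summed to 3.62 and 4.04 CPM, with S100a9 at 0.41 on 45 and 51 reads. The pancreas list held 1 measured gene, Cela1, at 0.47, and 4 of its 6 symbols had no reads in either library. The intestine list held 2, Lgals4 at 0.37 and Fabp2 at 0.21. Prox2, the relative of Prox1, was at 0.56 on 35 and 44 reads, with an interval from -0.11 to 1.25 that included no difference.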
